A study of Mus musculus with 116 samples.

Results

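The genes described here are the mouse heat shock and chaperone genes of the array: the HSP70, HSP110 and HSP90 families, the mitochondrial chaperonin, the cytosolic chaperonin CCT (also called TRiC), the J proteins of the Dnaja, Dnajb and Dnajc groups, and the small heat shock proteins. They were chosen by the start of the gene symbol on the array (Hspa, Hspb, Hspd, Hspe, Hsph, Hsp90, Dnaja, Dnajb, Dnajc, Cct followed by a digit, or Tcp1), and no measured value entered the choice. The rule found 77 genes on 85 probes among 15097 genes with a named probe. They were 9 CCT subunits including Tcp1, 12 HSP70 genes, Hsph1 of the HSP110 family, Hsp90b1 of the HSP90 family, 3 genes of the mitochondrial chaperonin, 4 Dnaja, 13 Dnajb and 25 Dnajc genes, 7 small heat shock proteins, and 2 cofactors whose symbols begin with Hspb (Hspbap1 and Hspbp1). The HSP70 class holds every gene with an Hspa symbol, so Hspa4, a relative of Hsph1, is counted there. The small heat shock protein class holds the other Hspb symbols, and not each gene need be one by function. Hsp90aa1, Hsp90ab1 and Hspa1b were not analysed here.

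Chaperones bind unfolded chains and help them reach or keep their folded state. HSP70 proteins cycle between ATP and ADP, J proteins deliver the substrate and start hydrolysis, and HSP110 proteins exchange the nucleotide. Chaperonins are barrels that enclose a chain: Hspd1 with its lid Hspe1 in the mitochondrion, and CCT, built of related subunits, in the cytosol, where actin and tubulin are its best known clients. Heat shock factor raises many of these genes under protein stress, while Hspa5, Hsp90b1 and several J proteins of the endoplasmic reticulum answer to the unfolded protein response. In growing cells much of the chaperone supply serves newly made proteins.

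FDB1 is a factor-dependent mouse myeloid line that proliferates in IL-3 and differentiates in GM-CSF. Parental cells grown in 10% serum with 500 U/mL IL-3 gave the 0-hour RNA, and after 3 washes parental cells were kept in 500 U/mL GM-CSF for 6, 12, 24, 48 or 72 hours. FDB1 cells expressing V449E or FI-Delta, which are activated mutants of the GM-CSF receptor's common beta chain, were sampled in IL-3 at 0 hours and at the same times after washing into medium without factor; values by time are always given in this order. Each of these 18 conditions had 2 replicates, and the labels do not say whether they were separate cultures, so the p-values reflect the spread between these RNAs alone, which may be technical. The labels do not say whether each mutant line was 1 clone, and the parental 0-hour RNA served as the start of the GM-CSF course.

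The 36 RNAs were compared on 116 spotted 2-colour arrays in 58 dye-swap pairs. Each value below is a log2 ratio (the base and the direction, Cy5 over Cy3, are likely but not stated), so it shows a difference between RNAs and never an absolute level, and levels of different genes cannot be set side by side. Where a level is given, it is relative to the mean of the 18 RNAs with the same replicate number. A gene was called changed at a Benjamini-Hochberg adjusted p under 0.05 in limma's 2-sided test, adjusted over the 15097 genes within a comparison, with a median standard error of a difference of 0.0894. The arrays came from 2 print runs (90 and 26 arrays), and every replicate 2 array of the GM-CSF course and of FI-Delta against GM-CSF lay in run 2, so for these comparisons replicate and print run cannot be told apart. Leaving out run 2 leaves the GM-CSF course with replicate 1 alone, and fewer RNAs for the spread shared by all genes. All arrays within the V449E and FI-Delta courses, and of V449E against FI-Delta, lay in run 1. A call of theirs that ended without run 2 need not reflect the run. In bulk RNA, fewer cells of a type and less RNA per cell cannot be told apart either.

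The sequence between Hspd1 and Hspe1 is shown because both mitochondrial chaperonin genes start from it in opposite directions. In RefSeq on GRCm38.p6, Hspd1 starts on the minus strand and Hspe1 on the plus strand of chromosome 1, with 215 bases between the starts at chr1:55087933-55088147, given here on the plus strand. The capitals mark 18 bases that hold overlapping matches to the heat shock element as searched (GAA, any 2 bases, TTC, any 2 bases, GAA, or the same pattern starting with TTC, on both strands), the first of them 89 bases before the Hspe1 start.
Hspd1 and Hspe1: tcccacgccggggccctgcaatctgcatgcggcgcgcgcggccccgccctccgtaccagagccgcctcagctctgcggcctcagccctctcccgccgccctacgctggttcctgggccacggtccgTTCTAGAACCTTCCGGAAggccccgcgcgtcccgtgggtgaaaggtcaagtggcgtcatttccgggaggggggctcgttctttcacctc

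Further promoters, 250 bases upstream of the start and read along the gene, are shown because they are the only matched promoters among the 77 genes with the ER stress element; all 3 genes encode chaperones of the endoplasmic reticulum, and promoters of other such genes are not shown. Capitals mark matches to the ER stress element as searched on both strands (the letters CCAAT, 9 free positions, CCACG). Hspa5 lies at chr2:34771840-34772089 on the plus strand, Hsp90b1 at chr10:86705445-86705694 on the minus strand, and Dnajc3 at chr14:118937682-118937931 on the plus strand.
Hspa5: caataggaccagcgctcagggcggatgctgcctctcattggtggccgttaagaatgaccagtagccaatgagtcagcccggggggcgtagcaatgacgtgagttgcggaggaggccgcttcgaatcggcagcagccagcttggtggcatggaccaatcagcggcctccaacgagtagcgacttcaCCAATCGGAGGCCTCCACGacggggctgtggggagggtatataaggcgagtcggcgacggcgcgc
Hsp90b1: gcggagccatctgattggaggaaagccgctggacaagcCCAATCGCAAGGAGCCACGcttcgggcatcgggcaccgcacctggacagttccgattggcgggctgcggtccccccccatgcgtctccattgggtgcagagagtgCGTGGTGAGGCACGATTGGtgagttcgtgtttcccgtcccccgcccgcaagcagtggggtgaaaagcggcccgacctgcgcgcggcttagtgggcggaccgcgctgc
Dnajc3: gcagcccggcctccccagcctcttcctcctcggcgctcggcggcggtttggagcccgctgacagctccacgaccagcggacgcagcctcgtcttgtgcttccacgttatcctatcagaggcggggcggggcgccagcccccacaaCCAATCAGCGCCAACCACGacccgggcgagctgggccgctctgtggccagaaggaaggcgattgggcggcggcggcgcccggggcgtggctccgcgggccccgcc

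RefSeq promoters were found for 64 of the 77 genes, in windows of 300 bases that run from 250 before to 50 after the start. The heat shock element matched in Dnajb6, Hspd1, Hspe1 and Hsph1, which is 6.25% of these genes against 0.662% of 27025 genes. Hspd1 and Hspe1 matched in the same 18 bases printed above, so this site was counted for both genes. In Hsph1 the match lay after the start. The ER stress element matched in Dnajc3, Hsp90b1 and Hspa5, 4.69% against 0.137% of all genes. The unfolded protein response element TGACGTGG matched in Dnajc25 alone (1.56% against 0.714%), and the E-box CACGTG in 7 genes, Hspd1 and Hsph1 among them (10.9% against 8.09%). The Hspd1 E-box lay upstream of another RefSeq start of that gene (chr1:55088244-55088493), outside the sequence printed above. A match says only that these letters are present.

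Over the 18 conditions the moderated F test called 33 of the 77 genes (42.9%), against 36.6% of all genes, and 34 (44.2%) were called in at least 1 of the 28 comparisons, against 31.7%. Called in at least 1 comparison were 8 of the 9 CCT genes, 7 of 12 HSP70 genes, Hsph1, Hsp90b1, Hspd1 and Hspe1, 3 of 4 Dnaja, 4 of 13 Dnajb and 8 of 25 Dnajc genes. None of the 7 small heat shock proteins and neither cofactor was called in any of the 28 comparisons. At 0 hours, in IL-3, limma called none of the 77 genes between V449E and parental cells (8 at an unadjusted p under 0.05), between FI-Delta and parental cells (4) or between V449E and FI-Delta (5), against 0.934%, 0.126% and 0.311% of all genes. With levels weighted by arrays, 13 were called between V449E and parental cells and 3 between FI-Delta and parental cells, and 2 were called between V449E and parental cells without print run 2.

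After 72 hours, chaperone genes fell in FI-Delta cells and in GM-CSF and were not called in V449E cells. In FI-Delta 16 of the 77 fell and none rose, against 10.7% of all genes lower and 7.85% higher, (18.5% called in either direction), and the median difference was -0.12 over the 77 genes and -0.0032 over all. In GM-CSF 11 fell and 4 rose (all genes 3.41% and 3.82%, 7.23% together), with medians of -0.06 and 0.0033. In V449E none was called (4 at an unadjusted p under 0.05), and 0% of all genes were, with medians of 0.01 and 0.0011. Of the 11 genes that fell in GM-CSF, 10 also fell in FI-Delta (90.9% of the first list and 62.5% of the second), namely Cct6a, Cct8, Tcp1, Dnaja1, Dnaja3, Dnajb6, Hspa4, Hspa9, Hspd1 and Hsph1. Over all genes the share was as high: of 515 that fell in GM-CSF, 474 also fell in FI-Delta (92.0% of the first list and 29.5% of the second). These comparisons share no RNA, but some arrays set GM-CSF directly against FI-Delta at 72 hours. The levels were solved over joined arrays and the spread was shared, so the lists are not independent.

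**Figure D1:**
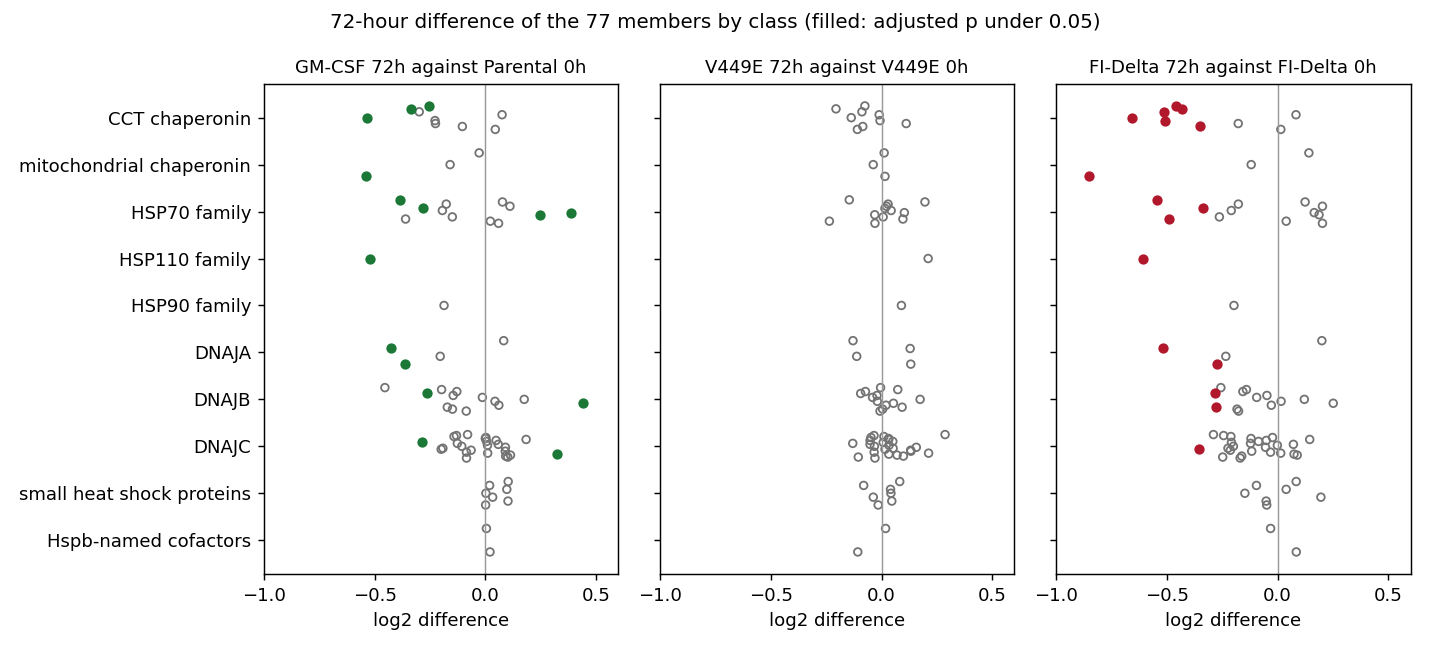
Log2 difference at 72 hours from 0 hours of each of the 77 genes, one point a gene, in rows by class and in panels by line; filled points passed the threshold. In FI-Delta 16 filled points lie below 0 and none above, in GM-CSF 11 lie below and 4 above, and V449E has none.

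These counts moved when single RNAs or the arrays of print run 2 were left out. The GM-CSF count of 15 became 2 without Parental 0h replicate 1, 7 without Parental 0h replicate 2, 6 without GM-CSF 72h replicate 1, 6 without GM-CSF 72h replicate 2 and 5 without print run 2. The FI-Delta count of 16 became 9 and 10 without FI-Delta 0h replicate 1 and replicate 2, 7 without FI-Delta 72h replicate 1, and 12 without FI-Delta 72h replicate 2. Cct5, Cct6a, Hspd1 and Tcp1 were called in FI-Delta whichever of these 4 RNAs was left out, and no gene was in GM-CSF.

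Hspd1, the barrel of the mitochondrial chaperonin, had the lowest 72-hour difference of the 77 genes in GM-CSF and in FI-Delta. In GM-CSF, Hspd1 stood at -0.38 and -0.25 at 6 hours, -0.53 and -0.12 at 12 hours, 0.29 and 0.33 at 24 hours, 0.06 and 0.10 at 48 hours, -0.64 and -0.43 at 72 hours relative to 0 hours (replicates 1 and 2). V449E cells had Hspd1 at -0.59 and -0.52 at 6 hours, -0.53 and -0.32 at 12 hours, -0.23 and 0.17 at 24 hours, -0.09 and 0.41 at 48 hours, 0.0015 and 0.03 at 72 hours. FI-Delta cells had Hspd1 at -0.44 and -0.84 at 6 hours, -0.67 and -0.95 at 12 hours, -0.19 and -0.32 at 24 hours, -0.43 and -0.30 at 48 hours, -0.90 and -0.80 at 72 hours. Hspd1 was below its start at 6 and 12 hours in both replicates of each line, above it at 24 and 48 hours in GM-CSF, below it at all 5 times in FI-Delta, and at it in V449E at 72 hours. At 72 hours its levels were -0.62 and -0.47 in FI-Delta against 0.28 and 0.34 at 0 hours, which did not overlap, a fall by 0.85 (SE 0.121, 1.8-fold, adjusted p = 5.03e-05 in limma). In GM-CSF the fall was by 0.54 (SE 0.121, adjusted p = 0.00767). It also fell in FI-Delta at 6 hours (by 0.64, adjusted p = 0.0105) and 12 hours (by 0.81, adjusted p = 0.000337), and in V449E at 6 hours (by 0.55, adjusted p = 0.0224). The V449E call ended without print run 2, which holds no array of the V449E course. FI-Delta stood below GM-CSF at 24 hours (-0.60, SE 0.121, adjusted p = 0.0402), where limma called no other of the 77 genes, against 0.0729% of all genes lower. This call ended with arrays scaled to equal spread, without print run 2 and with levels weighted by arrays.

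Hspe1, the lid of that barrel, shares the printed sequence with Hspd1 and showed smaller differences. In GM-CSF, Hspe1 stood at -0.31 and -0.19, -0.43 and -0.06, 0.11 and 0.32, -0.03 and 0.06 and then -0.26 and -0.06 at these 5 times. V449E cells had Hspe1 at -0.38 and -0.20, -0.24 and -0.14, -0.01 and 0.27, -0.06 and 0.22 and then -0.14 and 0.06. FI-Delta cells had Hspe1 at -0.25 and -0.41, -0.19 and -0.38, 0.02 and -0.0014, 0.11 and -0.10 and then -0.08 and -0.16. The early values were below 0 in every replicate of each line, and at 72 hours V449E replicate 2 stood above 0. Hspe1 fell in FI-Delta at 6 hours (by 0.33, SE 0.079, adjusted p = 0.0399) and 12 hours (by 0.28, SE 0.079, adjusted p = 0.0316), and both calls ended without print run 2, the second also with arrays scaled to equal spread. It was not called at 72 hours in FI-Delta (-0.12) or GM-CSF (-0.16, adjusted p = 0.28). The pseudogene Hspe1-ps6 was not called in any comparison, and its probe and that of Hspe1 may read both transcripts.

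Hspa9, the HSP70 of the mitochondrial matrix that drives protein import, fell at 72 hours in GM-CSF and in FI-Delta. In GM-CSF, Hspa9 stood at 0.08 and -0.02, -0.49 and -0.11, -0.31 and 0.12, -0.38 and -0.08 and then -0.50 and -0.27 at these 5 times. V449E cells had Hspa9 at -0.30 and -0.12, -0.34 and -0.32, -0.31 and 0.05, -0.16 and -0.11 and then -0.10 and -0.19. FI-Delta cells had Hspa9 at -0.23 and -0.07, -0.27 and -0.43, -0.23 and -0.09, -0.44 and -0.24 and then -0.46 and -0.63. Every 72-hour value was below 0. The fall was by 0.54 in FI-Delta (SE 0.116, adjusted p = 0.00196) and by 0.38 in GM-CSF (SE 0.116, adjusted p = 0.0451), the second lost with arrays scaled to equal spread and without print run 2.

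Dnaja3, the J protein that works with Hspa9 in mitochondria, fell in GM-CSF and FI-Delta too. In GM-CSF, Dnaja3 stood at -0.45 and 0.05, -0.47 and -0.11, -0.15 and -0.07, -0.26 and -0.13 and then -0.49 and -0.36 at these 5 times. V449E cells had Dnaja3 at -0.19 and -0.20, -0.28 and 0.06, 0.01 and 0.23, 0.03 and 0.35 and then 0.03 and 0.22. FI-Delta cells had Dnaja3 at -0.31 and -0.30, -0.52 and -0.31, -0.18 and -0.11, -0.36 and -0.21 and then -0.53 and -0.50. The replicates of GM-CSF lay apart at 6 and 12 hours and closer at 72 hours. Dnaja3 fell by 0.43 in GM-CSF (SE 0.0975, adjusted p = 0.00855) and by 0.52 in FI-Delta (SE 0.0975, adjusted p = 0.000722) at 72 hours, and by 0.41 in FI-Delta at 12 hours (adjusted p = 0.0127).

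**Figure D2:**
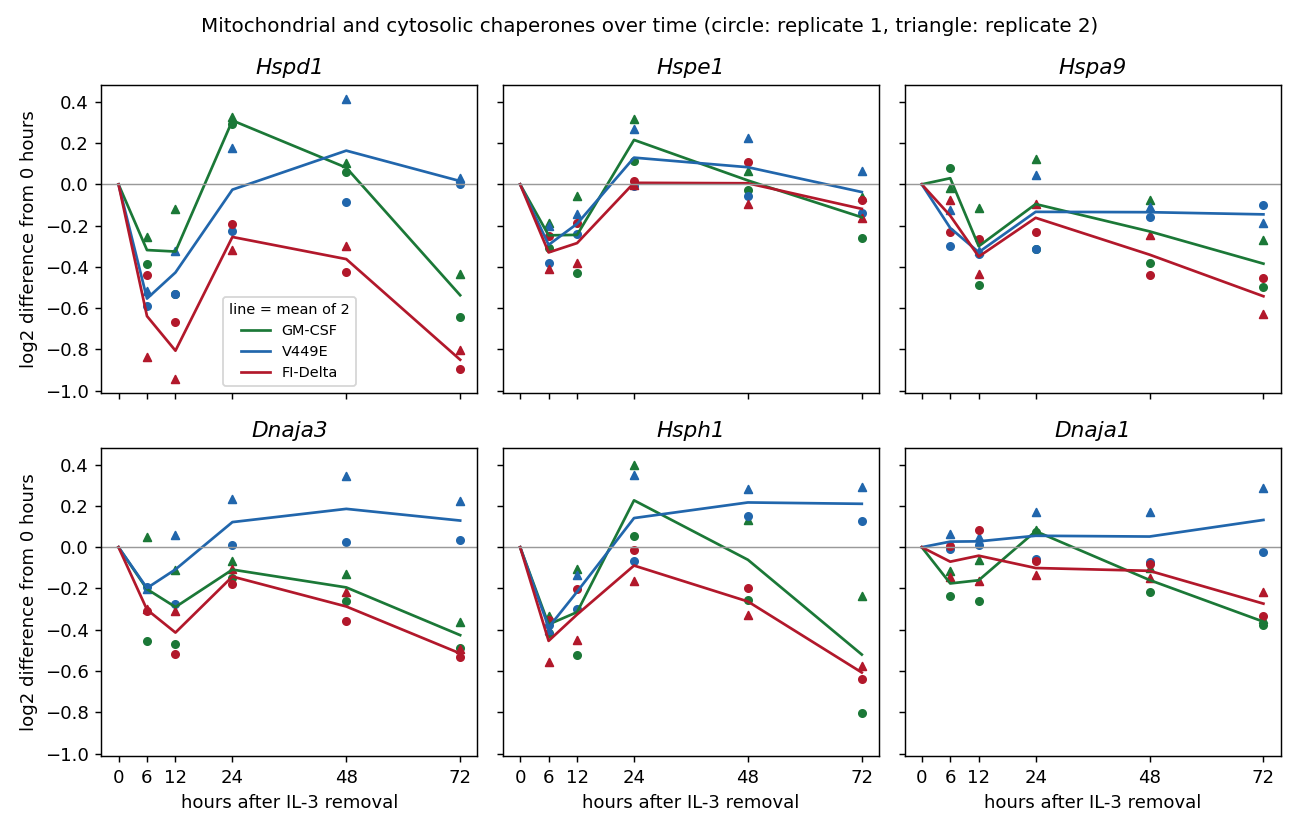
Log2 difference from the line's own 0-hour RNA (parental cells for GM-CSF) against hours after IL-3 removal for 6 chaperone genes; circles are replicate 1, triangles replicate 2 and lines their means. Hspd1 and Hsph1 dip at 6 hours in each line, and at 72 hours both replicates of FI-Delta lie below those of V449E in every panel but that of Hspe1.

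Mitochondrial import and folding genes that are not among the 77 were counted from a list of 29. In FI-Delta 14 of 29 fell (10.7% of all genes did) and none rose at 72 hours, with a median of -0.25. In GM-CSF 5 fell (3.41% of all genes did), with a median of -0.12. They included Trap1, the mitochondrial HSP90 (-0.62 in FI-Delta and -0.43 in GM-CSF), the import pore Tomm40 (-0.59 and -0.45) and Timm8a1 (-0.80 and -0.60).

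Hsph1, the HSP110 nucleotide exchange factor, diverged between lines. In GM-CSF, Hsph1 stood at -0.42 and -0.33, -0.52 and -0.11, 0.05 and 0.40, -0.26 and 0.13 and then -0.80 and -0.24 at these 5 times. V449E cells had Hsph1 at -0.37 and -0.40, -0.30 and -0.13, -0.07 and 0.35, 0.15 and 0.28 and then 0.13 and 0.29. FI-Delta cells had Hsph1 at -0.35 and -0.56, -0.20 and -0.45, -0.01 and -0.17, -0.20 and -0.33 and then -0.64 and -0.58. All 6 values at 6 hours were below 0. At 72 hours both V449E values were above 0 and all 4 values of the other courses below. Hsph1 fell by 0.61 in FI-Delta (SE 0.123, adjusted p = 0.00126) and by 0.52 in GM-CSF (SE 0.123, adjusted p = 0.0105), where the replicates differed (-0.80 and -0.24). The parental 0-hour levels behind the GM-CSF values differed as well (0.51 and 0.08). The V449E difference was 0.21 (SE 0.123, adjusted p = 1).

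Hspa4, a cytosolic relative of Hsph1 with the same exchange role, fell less and more evenly. In GM-CSF, Hspa4 stood at -0.06 and -0.20, -0.35 and -0.07, -0.01 and 0.14, -0.001 and 0.001 and then -0.25 and -0.31 at these 5 times. V449E cells had Hspa4 at -0.30 and -0.09, -0.29 and -0.16, -0.16 and 0.03, -0.06 and 0.21 and then -0.03 and 0.06. FI-Delta cells had Hspa4 at -0.05 and -0.04, -0.39 and -0.38, -0.15 and -0.14, -0.09 and -0.05 and then -0.33 and -0.34. The 12-hour and 72-hour values of FI-Delta lay within 0.1 of each other. Hspa4 fell by 0.38 at 12 hours (SE 0.0752, adjusted p = 0.00364) and by 0.33 at 72 hours (adjusted p = 0.003) in FI-Delta, and by 0.28 at 72 hours in GM-CSF (adjusted p = 0.0222), the last lost with arrays scaled to equal spread and without print run 2.

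Hspa14, an HSP70 of the ribosome-associated complex that binds chains as they leave the ribosome, was low early. In GM-CSF, Hspa14 stood at -0.44 and -0.50, -0.56 and -0.34, -0.24 and 0.07, -0.03 and 0.07 and then -0.25 and -0.05 at these 5 times. V449E cells had Hspa14 at -0.31 and -0.48, -0.19 and -0.35, -0.05 and -0.10, 0.05 and 0.20 and then -0.03 and 0.04. FI-Delta cells had Hspa14 at -0.13 and -0.62, -0.13 and -0.44, -0.07 and -0.20, 0.09 and -0.09 and then -0.26 and -0.27. All 12 values at 6 and 12 hours were below 0, and the 72-hour values of FI-Delta were too (-0.26, SE 0.0999, adjusted p = 0.0725). It fell in GM-CSF at 6 hours (by 0.47, SE 0.0999, adjusted p = 0.0292), as the 1 of the 77 genes called there (0.212% of all genes were lower), and at 12 hours (by 0.45, adjusted p = 0.0155; 2.27% of all genes were lower). The 6-hour call ended without print run 2. Its partner in that complex, the J protein Dnajc2, was averaged over 3 probes and fell in FI-Delta at 12 hours (by 0.31, SE 0.0868, adjusted p = 0.0306) and at 72 hours (by 0.36, adjusted p = 0.00556). The probes did not move together: at 72 hours those made from the RefSeq transcript stood at -0.60 and -0.57, and the third probe at 0.10.

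Hspa13, an HSP70 of the microsomal compartment, separated V449E from FI-Delta more than it moved over time. In GM-CSF, Hspa13 stood at -0.11 and 0.09, -0.65 and -0.06, -0.64 and -0.08, -0.93 and -0.14 and then -0.59 and -0.13 at these 5 times. V449E cells had Hspa13 at 0.05 and 0.10, -0.03 and 0.08, -0.15 and -0.03, -0.20 and 0.05 and then -0.07 and 0.26. FI-Delta cells had Hspa13 at 0.06 and -0.09, -0.17 and -0.25, -0.27 and -0.43, -0.34 and -0.46 and then -0.49 and -0.49. In GM-CSF the replicates lay far apart from 12 hours on. Hspa13 fell in FI-Delta at 72 hours (by 0.49, SE 0.16, adjusted p = 0.0349), a call lost with arrays scaled to equal spread, and was not called in GM-CSF (-0.36, adjusted p = 0.208).

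The inducible cytosolic HSP70 Hspa1a and its neighbour Hspa1l rose in GM-CSF. Their RefSeq starts face away from each other, 547 bases apart on chromosome 17. Hspa1a stood at 0.30 and 0.19 after 72 hours in GM-CSF, a rise of 0.25 (SE 0.0689, adjusted p = 0.0309), and Hspa1l at 0.61 and 0.16, a rise of 0.39 (SE 0.105, adjusted p = 0.0255). Both replicates of each gene were above 0, and the Hspa1a call ended with arrays scaled to equal spread and without print run 2. Hspa1a is nearly identical to Hspa1b, so its probe may read both. Hspa8, the constitutive cytosolic HSP70, was not called in any comparison and stood at 0.12 in FI-Delta, 0.08 in GM-CSF and 0.20 in V449E at 72 hours (SE 0.0861). Its probes had opposite signs in FI-Delta (-0.07 and 0.32).

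Subunits of CCT fell in FI-Delta and, fewer of them, in GM-CSF. At 72 hours in FI-Delta 6 of the 9 fell and none rose (66.7% against 10.7% of all genes lower), with a median of -0.43. In GM-CSF 3 of the 9 fell (3.41% of all genes were lower), with a median of -0.23. In V449E none was called (0% of all genes were), with a median of -0.08. Cct6a, a subunit of the ring, fell most. In GM-CSF, Cct6a stood at -0.17 and -0.37, -0.30 and -0.37, -0.01 and 0.03, 0.11 and -0.16 and then -0.51 and -0.56 at these 5 times. V449E cells had Cct6a at -0.46 and -0.36, -0.41 and -0.35, -0.21 and -0.01, -0.18 and 0.17 and then -0.07 and -0.21. FI-Delta cells had Cct6a at -0.23 and -0.44, -0.46 and -0.81, -0.19 and -0.09, -0.16 and -0.21 and then -0.60 and -0.72. It was low at 6 and 12 hours in every replicate of every line, and at 72 hours in GM-CSF and FI-Delta. Cct6a fell by 0.66 in FI-Delta (SE 0.0974, 1.58-fold, adjusted p = 7.76e-05) and by 0.54 in GM-CSF (SE 0.0974, adjusted p = 0.00137) at 72 hours, and by 0.64 in FI-Delta at 12 hours (adjusted p = 0.000411). In V449E it fell by 0.41 at 6 hours (adjusted p = 0.0393) and by 0.38 at 12 hours (adjusted p = 0.0471), and both V449E calls ended without print run 2, the later one also with arrays scaled to equal spread.

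Tcp1, the subunit that gave the complex its name, was below its start at every time in FI-Delta. In GM-CSF, Tcp1 stood at -0.14 and -0.09, -0.19 and -0.18, 0.02 and -0.02, -0.13 and 0.01 and then -0.36 and -0.15 at these 5 times. V449E cells had Tcp1 at -0.13 and -0.08, -0.34 and -0.19, -0.23 and -0.15, -0.05 and 0.11 and then -0.05 and -0.10. FI-Delta cells had Tcp1 at -0.26 and -0.11, -0.35 and -0.34, -0.21 and -0.24, -0.38 and -0.26 and then -0.43 and -0.49. All 10 FI-Delta values were below 0. The falls in FI-Delta were by 0.35 at 12 hours (SE 0.0719, adjusted p = 0.00557), 0.32 at 48 hours (adjusted p = 0.00954) and 0.46 at 72 hours (adjusted p = 0.00014), and in GM-CSF by 0.25 at 72 hours (adjusted p = 0.0322), lost with arrays scaled to equal spread and without print run 2. Tcp1 was also lower in FI-Delta than in GM-CSF at 48 hours (levels of -0.22 and -0.16 against 0.11 and 0.16, a difference of -0.32, SE 0.0719, adjusted p = 0.0468), alone of the 77 genes (0.132% of all genes lower), and this call ended without print run 2 and with levels weighted by arrays. Limma called none between FI-Delta and GM-CSF at 12 hours (7 at an unadjusted p under 0.05; 0.424% of all genes).

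Cct5 fell in FI-Delta at 12 and 72 hours. In GM-CSF, Cct5 stood at -0.05 and -0.12, -0.20 and -0.05, 0.02 and 0.28, -0.03 and -0.08 and then -0.22 and -0.23 at these 5 times. V449E cells had Cct5 at -0.13 and -0.09, -0.20 and -0.05, -0.12 and 0.13, -0.02 and 0.09 and then 0.01 and -0.02. FI-Delta cells had Cct5 at -0.18 and -0.33, -0.25 and -0.50, -0.10 and -0.13, -0.23 and -0.29 and then -0.53 and -0.48. The GM-CSF replicates agreed closely at 72 hours. The FI-Delta fall was by 0.38 at 12 hours (SE 0.0816, adjusted p = 0.00708) and by 0.51 at 72 hours (adjusted p = 0.000175), and the GM-CSF difference of -0.23 was not called (adjusted p = 0.102). Cct5 was the 1 gene of the 77 lower in FI-Delta than in GM-CSF at 72 hours (-0.33, SE 0.0816, adjusted p = 0.0474; 0.616% of all genes were lower). That call ended with arrays scaled to equal spread, without print run 2 and with levels weighted by arrays.

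Cct7 was low early and late. In GM-CSF, Cct7 stood at -0.22 and -0.33, -0.34 and -0.38, 0.07 and 0.14, 0.20 and 0.01 and then -0.33 and -0.27 at these 5 times. V449E cells had Cct7 at -0.38 and -0.38, -0.28 and -0.34, -0.12 and 0.03, -0.10 and 0.24 and then -0.08 and -0.10. FI-Delta cells had Cct7 at -0.11 and -0.40, -0.24 and -0.71, -0.15 and -0.09, 0.02 and -0.18 and then -0.54 and -0.48. At 24 hours its values lay between -0.15 and 0.14. It fell by 0.47 at 12 hours (SE 0.108, adjusted p = 0.0104) and by 0.51 at 72 hours (adjusted p = 0.00182) in FI-Delta, and was not called in GM-CSF (-0.30, adjusted p = 0.105).

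Cct8 lacked an early dip in FI-Delta and GM-CSF at 6 hours. In GM-CSF, Cct8 stood at 0.14 and 0.01, -0.16 and -0.11, -0.10 and -0.10, -0.06 and -0.15 and then -0.27 and -0.40 at these 5 times. V449E cells had Cct8 at -0.23 and -0.09, -0.26 and -0.12, -0.21 and -0.19, -0.10 and -0.11 and then -0.22 and -0.19. FI-Delta cells had Cct8 at 0.07 and 0.04, -0.28 and -0.13, -0.10 and -0.10, 0.02 and -0.21 and then -0.53 and -0.33. All 6 values at 72 hours were below 0, the V449E values too. It fell by 0.43 in FI-Delta (SE 0.0818, adjusted p = 0.000732) and by 0.34 in GM-CSF (SE 0.0818, adjusted p = 0.0126), and was not called in V449E; the GM-CSF call ended without print run 2. Cct3 fell in FI-Delta at 72 hours (-0.34 and -0.36, a fall by 0.35, SE 0.114, adjusted p = 0.0336), which ended with arrays scaled to equal spread and without print run 2.

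**Figure D3:**
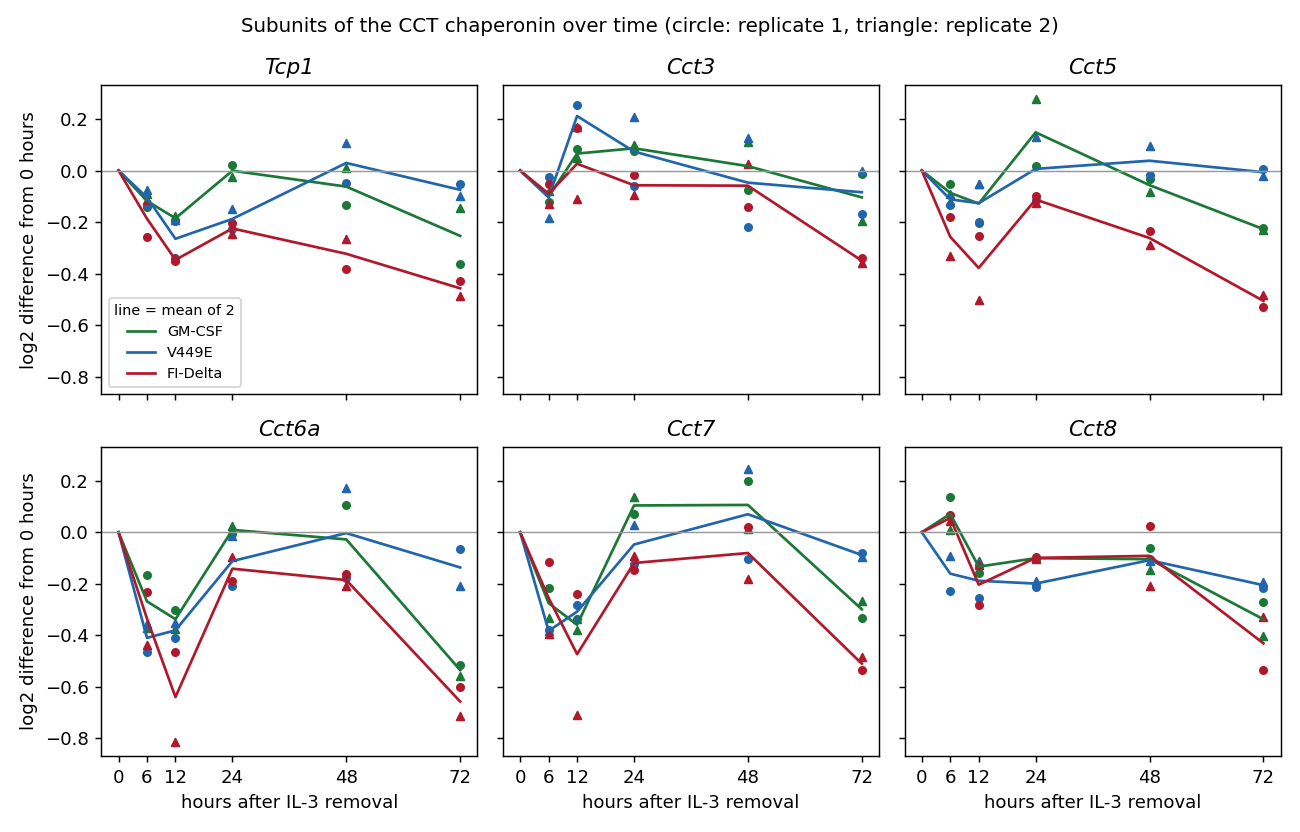
Log2 difference from the line's own 0-hour RNA (parental cells for GM-CSF) against hours after IL-3 removal for 6 CCT subunits; circles are replicate 1, triangles replicate 2 and lines their means. At 72 hours FI-Delta lies below 0 in both replicates of all 6 subunits, and Cct6a reaches -0.60 and -0.72.

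Of the remaining CCT genes, Cct2 was not called in any comparison. Cct6b, a testis-enriched relative of Cct6a, rose at 12 hours in GM-CSF (0.32 and 0.21, a rise of 0.26, SE 0.072, adjusted p = 0.0421; 1.58% of all genes rose) and in FI-Delta (0.13 and 0.36, a rise of 0.25, adjusted p = 0.0402), and both calls ended with arrays scaled to equal spread and without print run 2. The 2 probes of Cct4 disagreed at 72 hours: the one from its RefSeq transcript stood at -0.49 in FI-Delta and -0.40 in GM-CSF (SE 0.0961, adjusted p = 0.0011 and 0.0131 when each probe was fitted alone in limma), and the other at 0.13 and -0.05 (SE 0.253). Of 18 genes for prefoldin and CCT cofactors, 1 rose (Uxt, 0.37) and 3 fell in FI-Delta, Uri1 (-0.39) and Pfdn2 (-0.27) among them, and none was called in GM-CSF. Of 17 CCT clients, 2 rose in both courses, Actg1 (0.47 in FI-Delta and 0.58 in GM-CSF) and Actr3 (0.36 and 0.39), while Fzr1 fell in FI-Delta (-0.28). Beside these 2 lists, 7.85% of all genes rose and 10.7% fell in FI-Delta at 72 hours, and 3.82% and 3.41% in GM-CSF.

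At 6 hours 2 of the 77 genes, Hspa5 and Hsp90b1, both chaperones of the endoplasmic reticulum, were lower in FI-Delta than in GM-CSF (0.126% of all genes were). Dnajc3, whose printed promoter holds the ER stress element as theirs do, was not called there (-0.26, SE 0.0772, adjusted p = 0.157). Hspa5, the HSP70 of that compartment, stood at levels of -0.24 and 0.06 in FI-Delta and 0.26 and 0.61 in GM-CSF, a difference of -0.52 (SE 0.118, adjusted p = 0.0364). Hsp90b1, the HSP90 of that compartment, stood at -0.35 and -0.17 against 0.20 and 0.35, a difference of -0.53 (SE 0.126, adjusted p = 0.0482). For Hspa5 fitted by probe in limma, the probe of its RefSeq transcript gave -0.76 (SE 0.141, adjusted p = 0.0098) and the other -0.28 (SE 0.18, adjusted p = 0.853). The groups did not overlap for either gene, and both calls ended without print run 2 and with levels weighted by arrays. Leaving out 1 of the 4 RNAs kept the Hspa5 call in 2 of 4 cases (-0.69 to -0.33) and the Hsp90b1 call in 1 (-0.67 to -0.37). Part of these differences was present at 0 hours, with no call. There Hspa5 stood at -0.14 and -0.16 in FI-Delta against 0.23 and 0.15 in parental cells (-0.34). Hsp90b1 then stood at -0.10 and -0.06 against 0.48 and -0.04 (-0.30). Whether the 6-hour responses of these 2 genes differed was not tested.

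Over time neither gene was called against its own 0 hours. In GM-CSF the replicates of Hsp90b1 had opposite signs at each time, with -0.70 and 0.15 at 12 hours and -0.48 and 0.11 at 72 hours. The Hspa5 probes disagreed here as well: fitted alone in limma, the probe of its RefSeq transcript stood at -0.66 in GM-CSF (SE 0.141, adjusted p = 0.00601) and -0.45 in FI-Delta (adjusted p = 0.0324) at 72 hours, and the other at 0.30 and 0.09 (SE 0.18). Of 35 genes for folding in the endoplasmic reticulum, 12 fell and 1 rose in FI-Delta and 7 fell and 1 rose in GM-CSF. The shares of all genes were 10.7% lower and 7.85% higher in FI-Delta, and 3.41% and 3.82% in GM-CSF. Pdia5, a disulfide isomerase, stood at -0.80 and -0.71.

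Dnajc3, a J protein of the endoplasmic reticulum that also restrains eIF2 alpha kinases, fell in GM-CSF. In GM-CSF, Dnajc3 stood at 0.04 and 0.22, -0.23 and -0.0015, -0.19 and -0.10, -0.20 and -0.08 and then -0.35 and -0.23 at these 5 times. V449E cells had Dnajc3 at 0.23 and 0.17, 0.13 and 0.05, -0.06 and -0.08, 0.13 and 0.21 and then 0.06 and -0.04. FI-Delta cells had Dnajc3 at 0.09 and -0.05, 0.07 and -0.19, 0.05 and -0.22, 0.08 and -0.05 and then -0.15 and -0.26. Both GM-CSF values at 72 hours were below 0, as were those of FI-Delta. The fall in GM-CSF was by 0.29 (SE 0.0772, adjusted p = 0.024) and ended without print run 2. It was not called in FI-Delta (-0.21, adjusted p = 0.0655).

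Dnajb12, a J protein of the endoplasmic reticulum membrane, fell slowly in FI-Delta. In GM-CSF, Dnajb12 stood at -0.08 and 0.16, -0.01 and 0.11, -0.13 and 0.22, -0.22 and -0.02 and then -0.19 and -0.16 at these 5 times. V449E cells had Dnajb12 at 0.04 and 0.15, -0.01 and 0.06, -0.07 and 0.04, -0.08 and 0.03 and then 0.10 and 0.08. FI-Delta cells had Dnajb12 at -0.08 and 0.05, -0.08 and -0.09, -0.21 and -0.17, -0.28 and -0.21 and then -0.23 and -0.33. From 24 hours all FI-Delta values were below -0.1. The 72-hour fall was by 0.28 (SE 0.0814, adjusted p = 0.0181) and ended with arrays scaled to equal spread. Dnajb14, its close relative in the same membrane, rose in GM-CSF at 72 hours (0.35 and 0.53, a rise of 0.44, SE 0.0955, adjusted p = 0.00586), a call that ended without print run 2.

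Dnajb6, which holds aggregation-prone proteins soluble, fell late in both courses. In GM-CSF, Dnajb6 stood at 0.03 and 0.06, 0.01 and 0.06, 0.01 and -0.08, -0.22 and -0.20 and then -0.27 and -0.26 at these 5 times. V449E cells had Dnajb6 at 0.14 and 0.23, -0.0033 and 0.29, -0.14 and 0.04, -0.10 and -0.10 and then -0.07 and -0.12. FI-Delta cells had Dnajb6 at -0.01 and 0.16, -0.10 and 0.07, -0.07 and -0.23, -0.21 and -0.29 and then -0.30 and -0.26. At 6 and 12 hours its values ran from -0.10 to 0.29. At 72 hours it fell by 0.28 in FI-Delta (SE 0.0795, adjusted p = 0.0145) and by 0.27 in GM-CSF (SE 0.0795, adjusted p = 0.0433), the latter lost with arrays scaled to equal spread and without print run 2.

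Dnaja1, the main cytosolic J protein of its group, fell by 0.36 in GM-CSF (-0.37 and -0.35, SE 0.0854, adjusted p = 0.0108) and by 0.27 in FI-Delta (-0.33 and -0.21, adjusted p = 0.0269) at 72 hours. The GM-CSF call ended without print run 2 and the FI-Delta call with arrays scaled to equal spread. Dnajb1, the heat-inducible cytosolic J protein, was not called in any comparison and stood at -0.18 in FI-Delta (SE 0.0707, adjusted p = 0.0903) and -0.09 in GM-CSF. Hspb1, the best known small heat shock protein, stood at -0.05 in FI-Delta and -0.01 in V449E (SE 0.0646).

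Dnajc15, a J protein of the mitochondrial inner membrane that restrains respiration, went the other way. In GM-CSF, Dnajc15 stood at -0.06 and 0.01, -0.05 and 0.11, 0.42 and 0.47, 0.38 and 0.40 and then 0.27 and 0.38 at these 5 times. V449E cells had Dnajc15 at 0.0044 and 0.01, 0.13 and 0.06, 0.25 and 0.25, 0.13 and 0.31 and then 0.01 and 0.06. FI-Delta cells had Dnajc15 at -0.0034 and -0.05, 0.07 and 0.06, 0.21 and 0.28, 0.26 and 0.48 and then -0.05 and 0.20. From 24 to 72 hours all 6 GM-CSF values were above 0.2. It rose in GM-CSF by 0.45 at 24 hours (SE 0.0807, adjusted p = 0.00377), 0.39 at 48 hours (adjusted p = 0.0123) and 0.32 at 72 hours (adjusted p = 0.0151), and in FI-Delta by 0.37 at 48 hours (adjusted p = 0.00887). All genes were higher at 1.12%, 0.98%, 3.82% and 3.04% in these comparisons. The 3 GM-CSF calls ended without print run 2.

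Dnajc9, a J protein that also binds histones, was low at 12 hours. In GM-CSF, Dnajc9 stood at -0.09 and -0.37, -0.49 and -0.40, 0.08 and -0.09, 0.25 and -0.03 and then -0.12 and -0.04 at these 5 times. V449E cells had Dnajc9 at -0.17 and -0.14, -0.33 and -0.36, 0.38 and 0.16, 0.27 and 0.47 and then 0.19 and 0.38. FI-Delta cells had Dnajc9 at 0.03 and -0.61, -0.07 and -0.98, -0.07 and -0.56, 0.39 and -0.29 and then -0.20 and -0.38. The FI-Delta differences lay far apart between replicates, with -0.07 and -0.98 at 12 hours, and the FI-Delta 0-hour levels did too (-0.16 and 0.37). The 12-hour fall in FI-Delta was by 0.53 (SE 0.153, adjusted p = 0.0385). It was -0.19 without FI-Delta 0h replicate 2 (adjusted p = 0.812) and -0.31 without FI-Delta 12h replicate 2 (adjusted p = 0.541), and the call also ended with arrays scaled to equal spread.

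Dnajc1 and Dnajc12 were called between lines but not against 0 hours. In GM-CSF, Dnajc1 stood at 0.07 and 0.13, 0.01 and 0.20, 0.02 and -0.06, -0.10 and -0.02 and then -0.12 and -0.05 at these 5 times. V449E cells had Dnajc1 at -0.01 and 0.14, 0.11 and 0.23, 0.06 and 0.13, -0.12 and 0.05 and then -0.07 and 0.01. FI-Delta cells had Dnajc1 at -0.02 and 0.03, 0.05 and 0.10, 0.07 and 0.10, -0.12 and 0.01 and then -0.17 and -0.17. Dnajc1 is a J protein of the endoplasmic reticulum membrane, and no comparison with 0 hours called it. In GM-CSF, Dnajc12 stood at -0.08 and 0.23, 0.15 and 0.25, 0.22 and 0.41, 0.05 and 0.07 and then 0.0043 and 0.18 at these 5 times. V449E cells had Dnajc12 at 0.12 and 0.06, 0.13 and 0.15, 0.21 and 0.40, 0.29 and 0.08 and then 0.11 and 0.09. FI-Delta cells had Dnajc12 at -0.05 and 0.07, 0.07 and 0.22, 0.07 and 0.36, -0.12 and 0.06 and then -0.16 and -0.16. The 24-hour values of Dnajc12 in replicate 2 were the highest in GM-CSF, V449E and FI-Delta, where its differences were 0.32, 0.30 and 0.21 (SE 0.0925, adjusted p = 0.0989, 0.108 and 0.3).

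Counted over the FI-Delta course, the calls came mainly at 12 and 72 hours. At 6 hours 2 of the 77 genes fell (0.722% of all genes), at 12 hours 10 fell and 1 rose (4.34% and 2.45%, 6.79% together), at 24 hours none was called by limma (10 at an unadjusted p under 0.05; 2.01% of all genes), at 48 hours 1 fell and 1 rose (2.31% and 3.04%), and at 72 hours 16 fell. These comparisons use the same 0-hour RNAs. The 12-hour count of 11 became 4 and 2 without FI-Delta 0h replicate 1 and replicate 2, 8 and 2 without FI-Delta 12h replicate 1 and replicate 2, 7 with arrays scaled to equal spread and 19 with levels weighted by arrays. Hspd1 and Cct6a kept their 12-hour calls whichever of the 4 RNAs was left out. The calls at 6 and 48 hours, those of V449E, those of GM-CSF and those between FI-Delta and GM-CSF each ended without at least 1 RNA. In V449E 2 genes fell at 6 hours (0.47% of all genes) and 1 at 12 hours (0.894%), and limma called none at 24 hours (10 at an unadjusted p under 0.05; 1.5% of all genes) or 48 hours (4; 0.00662%). The 24-hour count became 2 without V449E 24h replicate 1.

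The calls between V449E and FI-Delta cells came late. Limma called none of the 77 genes between them at 6 hours (10 at an unadjusted p under 0.05; 1.06% of all genes), 12 hours (11; 1.46%) or 24 hours (7; 3.8%). At 48 hours 7 were higher in V449E and 3 lower (4.1% and 5.54% of all genes), and at 72 hours 19 were higher and 3 lower (10.8% and 8.86%, 19.7% together), with a median of 0.12 over the 77 genes and -0.0022 over all. The 72-hour count of 22 became 11 without V449E 72h replicate 1, 12 without FI-Delta 72h replicate 1, 16 without either replicate 2 and 13 with arrays scaled to equal spread.

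At 48 hours the genes higher in V449E were Hspa13 (0.59, SE 0.16, adjusted p = 0.0175), Cct4 (0.44), Dnaja3 (0.43), Hsph1 (0.42), Tcp1 (0.34, SE 0.0719, adjusted p = 0.00249), Dnajc12 (0.33) and Dnajb12 (0.31). Lower were Dnaja4 (-0.36), a cytosolic J protein, Dnajc15 (-0.36) and Dnajc14 (-0.22). The Cct4 replicates gave 0.74 and 0.13. The count of 10 became 6 and 3 without V449E 48h replicate 1 and replicate 2, 2 without FI-Delta 48h replicate 1 and 7 without FI-Delta 48h replicate 2, and no gene kept its call in all 4 cases. Over these cases Cct4 ran from 0.24 to 0.65, Dnajc12 from 0.19 to 0.48 and Dnaja4 from -0.52 to -0.14. With levels weighted by arrays, Dnajb12, Dnajc12, Hspa13 and Hsph1 lost their calls, and without print run 2 Dnajc12 and Dnajc14 did.

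Hspa13 was higher in V449E by the most at 72 hours: its levels were 0.17 and 0.53 in V449E and -0.58 and -0.42 in FI-Delta, a difference of 0.85 (SE 0.16, 95% interval 0.52 to 1.18, adjusted p = 0.000499). Hsph1 stood at 0.24 and 0.29 against -0.63 and -0.35 (0.75, SE 0.123, adjusted p = 0.000109), and Hspd1 at 0.21 and 0.04 against -0.62 and -0.47 (0.66, SE 0.121, adjusted p = 0.000361). The levels of these 3 genes did not overlap between the lines. Also higher in V449E were Dnaja3 (0.60), Hsp90b1 (0.57), Cct6a (0.48), Dnajb9 (0.47), Dnajb12 (0.47), Dnaja1 (0.39), Hspa9 (0.38), Dnajc12 (0.38), Tcp1 (0.37) and Cct5 (0.35), with Dnajc2, Cct8, Hspa4, Dnajc3, Dnajc1 and Dnajc16 between 0.30 and 0.21. At 0 hours, with no call, Hspa13 stood at 0.24 and 0.27 in V449E against -0.09 and 0.07 in FI-Delta. Hsp90b1 then stood at 0.24 and 0.17 against -0.10 and -0.06. For neither gene did limma call the difference in the 72-hour response (0.58, adjusted p = 0.148, and 0.29, adjusted p = 0.42). Lower in V449E were Dnaja4 (-0.41), Hspa1a (-0.30) and Dnajc15 (-0.25). Dnajc15 and Dnajb9 also stood apart at 0 hours, with no call. Dnajc15 was then at -0.16 and -0.27 in V449E against 0.03 and -0.04 in FI-Delta, and Dnajb9 at 0.12 and 0.17 against -0.05 and -0.11. Their 72-hour responses were not called different in limma (-0.04, adjusted p = 0.905, and 0.25, adjusted p = 0.594). Cct6a, Dnaja1, Dnaja3, Dnajb12, Hspa13, Hspd1, Hsph1 and Tcp1 kept their calls whichever of the 4 RNAs was left out.

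**Figure D4:**
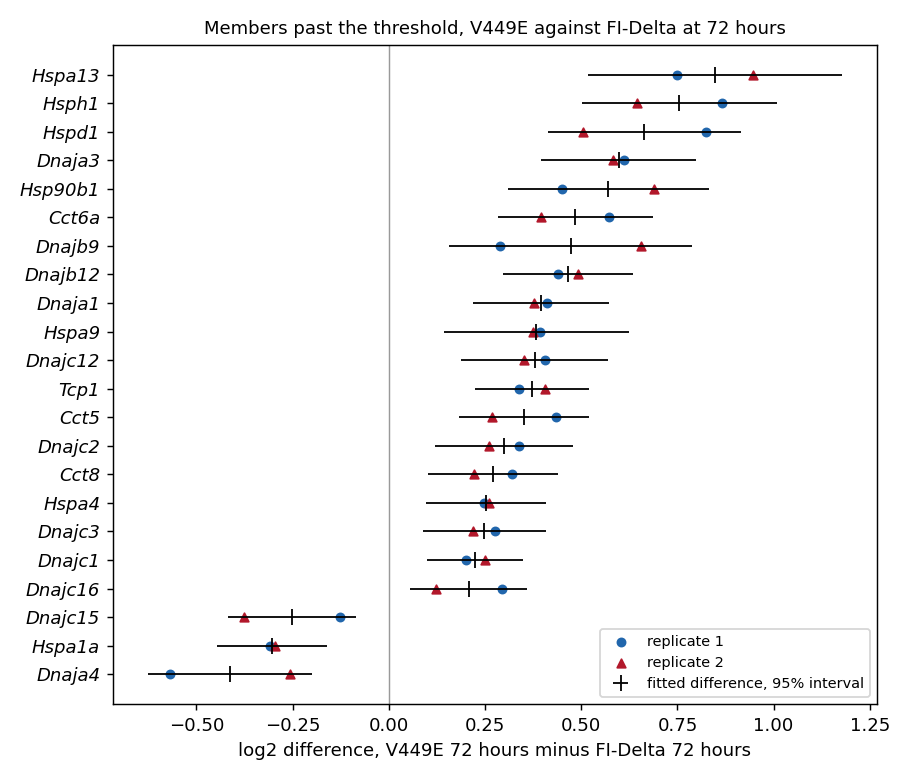
Log2 difference of V449E minus FI-Delta at 72 hours for the 22 genes past the threshold; black marks are fitted differences with 95% intervals, circles replicate 1 and triangles replicate 2. The 19 genes above 0 run up to Hspa13 at 0.85, and Dnaja4, Hspa1a and Dnajc15 lie below 0 in both replicates.

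The difference between lines in the 72-hour response was itself tested. The signed response was higher in V449E, where it lay nearer 0 or above it, than in FI-Delta, where it was a fall, for 6 of the 77 genes (2.64% of all genes): Hspd1 (0.87, SE 0.171, adjusted p = 0.00561), Hsph1 (0.82, adjusted p = 0.00937), Dnaja3 (0.64, adjusted p = 0.00992), Cct6a (0.52, adjusted p = 0.0341), Cct5 (0.50, adjusted p = 0.0163) and Tcp1 (0.38, adjusted p = 0.0346). Against GM-CSF, V449E was higher for Hsph1 (0.73, SE 0.173, adjusted p = 0.0485; 0.311% of all genes). Between FI-Delta and GM-CSF limma called none (4 at an unadjusted p under 0.05), against 0.00662% of all genes. With arrays scaled to equal spread none of these 7 calls remained, and without print run 2 the calls of Cct5, Cct6a and Tcp1, and of Hsph1 against GM-CSF, ended. Each of the 7 calls ended without at least 1 RNA: of 8 cases Hspd1 kept its call in 7, Hsph1 and Dnaja3 in 5, Cct5 in 2, Cct6a in 1 and Tcp1 in 0, and Hsph1 against GM-CSF in 2 (0.53 to 1.05).

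Of 32 genes for heat shock factors and cochaperones of HSP70 and HSP90, 9 fell and 1 rose in FI-Delta at 72 hours and 2 fell in GM-CSF. The shares of all genes were 10.7% lower and 7.85% higher in FI-Delta, and 3.41% lower in GM-CSF. Fkbp4, an immunophilin that binds HSP90, stood at -0.76 in FI-Delta, and Hyou1, an HSP110 relative of the endoplasmic reticulum, at -0.39 in GM-CSF.

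Other gene groups were counted at 72 hours. Over all genes 10.7% fell and 7.85% rose in FI-Delta, and 3.41% fell and 3.82% rose in GM-CSF. Of 21 ribosome biogenesis genes 17 fell and 1 rose in FI-Delta and 15 fell in GM-CSF, with Nop56 at -1.37 and -0.80. Of 21 G1/S and replication genes 8 fell in FI-Delta and 1 in GM-CSF, the latter near the share over all genes. Of 14 myeloid maturation markers 10 rose in FI-Delta and 9 in GM-CSF (Ltf at 2.68 in FI-Delta and Mmp8 at 2.20 in GM-CSF), and of 12 mast cell and progenitor markers 6 and 5 fell (Cpa3 at -2.87 and -1.70). In V449E at 72 hours 0% of all genes were called, and so none of these lists. Ratios hold no level, so whether a marker was present at all cannot be read from them. Their part in the chaperone results was not tested.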

How the data were processed

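Per the labels, the authors normalised the arrays and put both print runs in 1 spot order. The authors' ratios were taken to be on a log2 scale as deposited; limma is named in the submitters' processing notes without a version, and the background correction and normalisation are not given in the sources used here. Of 23040 probes, 1243 controls were left out, and 16651 of the other 21797 had 1 gene symbol. Averaging probes by symbol gave 15097 genes. Dye-swap pairs were combined, and a least squares solution per replicate number gave a level for each of 36 RNAs; arrays join only RNAs of 1 replicate number. limma 3.58.1 in R 4.3.3 (lmFit, eBayes) tested the differences with replicate number as a block (17 residual and 5.57 prior degrees of freedom); alternatives are given in the closing section. A condition lay on 8 to 32 arrays, whose number limits the precision. Signal intensities were not used here. Within a dye-swap pair, where agreement gives a negative correlation, r ran from -0.653 to -0.0327 with a median of -0.358. Between replicates, the differences of all genes correlated at 0.0663 for FI-Delta against parental cells at 0 hours. This r was 0.206 for V449E at 72 hours, 0.534 for GM-CSF at 72 hours and 0.835 for FI-Delta at 72 hours. On simulated data, recovery at 72 hours was 86% (GM-CSF) and 90% (FI-Delta) for log2 changes of 0.5 and 100% for changes of 1, with 5.1% and 1.55% false calls. The simulated levels were independent between RNAs and genes, with no array, dye or print-run noise. These rates therefore do not measure recovery on the real arrays. The 37 genes given by value were the 20 with the largest moderated F, those called in any comparison and a list of classic chaperones. The genes and lists were chosen with earlier results of these data known.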

Additional observations from a re-analysis of the deposited data

Results flagged for a closer look

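These 7 results stood out because the 72-hour response of a gene differed between 2 lines when the difference itself was tested in limma. The signed V449E response exceeded that of FI-Delta by 0.87 for Hspd1, 0.82 for Hsph1, 0.64 for Dnaja3, 0.52 for Cct6a, 0.50 for Cct5 and 0.38 for Tcp1. It exceeded that of GM-CSF by 0.73 for Hsph1. The first 6 share the V449E and FI-Delta RNAs, and Hsph1 appears in both comparisons. Each of the 7 lost its call without at least 1 RNA.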

How the results depend on the processing

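No called difference changed sign under the alternatives that kept 1 value per gene. Single probes could differ in sign: in FI-Delta at 72 hours the Dnajc2 probes stood at -0.60, -0.57 and 0.10. Of 98 called differences, all stayed past the threshold with the median of probes, with arrays centred on the median and with no replicate block, 65 with arrays scaled to equal spread, 62 without print run 2 and 83 with levels weighted by arrays. Leaving out 1 RNA kept 175 of 420 values past the threshold and moved 245 below it. Counts of called genes moved as follows. Without print run 2, GM-CSF at 72 hours gave 5, V449E against parental cells at 0 hours 2, FI-Delta against GM-CSF at 72 hours 0, and the response differences 4. Weighting levels by arrays gave 28 for FI-Delta at 72 hours, 13 and 3 for V449E and FI-Delta against parental cells at 0 hours, 0 for FI-Delta against GM-CSF at 72 hours, 66 (from 37) for the remaining comparisons and 13 for the response differences. Scaling arrays to equal spread gave 13 for V449E against FI-Delta at 72 hours, 0 for FI-Delta against GM-CSF and 0 for the response differences. With no replicate block, the replicate numbers still pairing RNAs on the arrays, FI-Delta against GM-CSF at 72 hours gave 2 and the response differences 11. Fitting each probe on its own, an alternative chosen after seeing the data, gave 0 for FI-Delta against GM-CSF. The cause of these moves was not tested. Leaving out 1 RNA gave 2 to 7 for GM-CSF at 72 hours, 0 to 2 for V449E at 24 hours, 0 to 0 for V449E at 72 hours and for both lines against parental cells at 0 hours, 7 to 12 for FI-Delta at 72 hours, 11 to 16 for V449E against FI-Delta and 0 to 1 for FI-Delta against GM-CSF. Signal over background is unknown here.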
